A study of Mus musculus with 48 samples.

Results

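The protein components of the large (60S) subunit of the cytosolic ribosome were followed in liver and colon of mice. The mice were raised on diets high or low in selenium (Se) and folate. Members were all probes whose accession maps to a gene symbol that starts with *Rpl* or *Rplp* and goes on with a digit, with symbols holding -ps left out. They were 77 of the 41174 probes of the array and 51 of the 18434 genes named there. A further 5 genes of this name form had no probe. Of the genes, 30 had 1 probe and 21 had 2 or more. Where a gene had several probes, the one with the highest mean signal stood for it. All but 1 gene, *Rpl39l*, were well above background on all 48 arrays.

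Pregnant mice of strain C57/BL6 received a high-fat diet that was either high (H) or low (L) in Se and folate. Their pups were given one of the same diets from weaning to 12 weeks of age. The study describes diet H as supplemented and diet L as marginally deficient, and fed the dams these diets from before mating. The first letter of a group is the diet of the dam during gestation and lactation, and the second letter is that of the offspring. HH and LL mice thus stayed on one diet, whereas HL and LH mice were switched at weaning. Every group ate the high-fat diet, so none stands for mice on standard chow, and the labels do not say which mice shared a litter. Liver RNA came from 5 HH, 6 HL, 6 LH and 6 LL mice, because 2 of the HH arrays carried the same animal and were averaged, and colon RNA came from 6 mice per group. The study describes the offspring as male. Each array compared the RNA of 1 mouse (Cy3) with a common reference (Cy5), which was made from an entire pregnant mouse with its foetus per the labels and described in the methods as pooled liver and intestinal RNA. All values are log2 ratios of mouse over reference. A ratio shows how a gene compares with itself between mice, not how abundant it is next to another gene.

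The arrays lay on 12 slides, each with the 4 diets of a single tissue. Of the spots, 55.1 to 66% were well above background in Cy3 on the liver arrays and 66.8 to 73.7% on the colon arrays. All 9 measured hepatocyte markers were higher in liver and 5 of 6 colonocyte markers were higher in colon, the exception being *Aqp8*. *Xist*, a transcript of female cells, was present in 2 liver and 6 colon samples. Of these, 1 liver and 3 colons lacked the Y-linked gene *Eif2s3y*, the only Y-linked gene checked. On 3 liver arrays and 1 colon array the log2 ratios had a low spread before the local background of a few spots was repaired. These samples were kept, and the counts below were also taken without them. How precise the values are depends on the number of arrays.

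A ribosome reads an mRNA on its small subunit and joins amino acids on its large subunit. The large subunit holds the peptidyl transferase centre, which is made of RNA, the tunnel through which the new protein leaves, and a flexible stalk of acidic proteins that recruits the translation factors. Its proteins are made in near equal amounts, and many of their mRNAs begin with a run of pyrimidines (the 5′ terminal oligopyrimidine tract) through which their translation is controlled together. In the liver these proteins serve a cell that exports large amounts of plasma protein.

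The start regions of 7 members are shown because the values of these genes are described mouse by mouse or, for *Rpl5*, serve for comparison. Each window runs from 60 bases before to 20 bases after the annotated transcription start and was taken from the RefSeq annotation of GRCm38.p6. Capitals mark a run of at least 8 C or T that lies within 10 bases before to 20 bases after the start, and the letters CCGGAAG on either strand (CTTCCGG on the printed strand), a core bound by ETS factors such as GABP. In *Rpl34* both overlap.
Rpl41: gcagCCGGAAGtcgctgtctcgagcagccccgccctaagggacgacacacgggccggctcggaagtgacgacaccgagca
Rpl39: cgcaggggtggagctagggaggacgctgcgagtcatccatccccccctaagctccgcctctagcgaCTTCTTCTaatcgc
Rpl34: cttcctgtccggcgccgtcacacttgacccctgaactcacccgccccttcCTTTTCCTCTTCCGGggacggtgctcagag
Rpl35: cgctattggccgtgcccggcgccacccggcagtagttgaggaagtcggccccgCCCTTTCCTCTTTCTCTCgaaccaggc
Rpl22l1: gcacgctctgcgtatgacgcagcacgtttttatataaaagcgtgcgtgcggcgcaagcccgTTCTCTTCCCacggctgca
Rpl4: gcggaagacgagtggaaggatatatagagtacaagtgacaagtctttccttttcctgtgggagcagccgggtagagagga
Rpl5: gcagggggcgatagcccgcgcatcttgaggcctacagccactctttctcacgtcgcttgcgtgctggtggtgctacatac
The windows lie at chr10:128549149-128549228 (*Rpl41*, minus strand), chrX:37085203-37085282 (*Rpl39*, minus), chr3:130730318-130730397 (*Rpl34*, minus), chr2:39005112-39005191 (*Rpl35*, minus), chr3:28805448-28805527 (*Rpl22l1*, plus), chr9:64173327-64173406 (*Rpl4*, plus) and chr5:107900468-107900547 (*Rpl5*, plus). Start windows of 300 bases were given for 39 of the 51 members. A pyrimidine run of at least 8 near the start was found in 15 of the 39 (38.5%), against 13% of all 27025 genes with a window. The letters CCGGAAG, searched over the whole window on both strands, were also found in 15 (38.5%), against 9.93% of all genes. The letters AAGATGGC, a core bound by YY1, were found on either strand in 4 (10.3%), against 3.19%. Bases of a run that lie outside the searched stretch were not counted, so a run that crosses its edge was shortened. The annotated starts can lie some bases from the true ones, so a run next to the start is missed in some genes.

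In the liver, most members were lower in LH than in HH mice. Over the 51 genes, the median log2 difference (LH minus HH) was -0.16, against -0.01 over all probes, and 43 differences were below 0, against 52.7% of all probes. Unadjusted p was under 0.05 for 21 genes that were lower and for 1 gene that was higher, against 6.15% of all probes lower and 5.84% higher. With 1 probe per gene 7.94% of all named genes were lower and 5.88% were higher. A gene was called where limma gave more than a 1.5-fold difference at a Benjamini-Hochberg FDR below 0.05. No member was called, and the lowest FDR among them was 0.12 (*Rpl41*). No probe of the array was called either. The study, at the same fold and FDR thresholds, reports many differentially expressed probes in HH *vs.* LH livers and fewer in HH *vs.* HL livers. It names *Rpl41* among the changed genes. Directions follow from the dyes given in the labels. A table legend of the study reads the sign of its HH *vs.* LH fold changes the other way round.

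Summed up per mouse as the median over the 51 genes, the log2 ratio was -0.40 ± 0.09 in HH (SD, n = 5), -0.60 ± 0.10 in HL (n = 6), -0.64 ± 0.11 in LH (n = 6) and -0.48 ± 0.09 in LL livers (n = 6). HH livers ranged from -0.50 to -0.29 and LH livers from -0.70 to -0.42, and 5 of the 6 LH mice lay below every HH mouse. The exception was LH replicate 4. HL livers ranged from -0.72 to -0.49, with 4 of 6 below every HH mouse, and LL livers ranged from -0.60 to -0.33, with 2 of 6 below. Within slides, the median difference between LH and HH was below 0 on 6 of 6 slides (-0.35 to -0.01) and that between HL and HH on 6 of 6 (-0.34 to -0.07). The HH arrays of slides 3 and 6 carried the same mouse, so 5 HH mice stand behind these 6 values, and the largest differences on both measures came from this mouse (-0.32 and -0.35 for LH, -0.26 and -0.34 for HL). In the colon the group means of this measure lay between 0.25 and 0.32 and the group ranges overlapped.

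**Figure D1:**
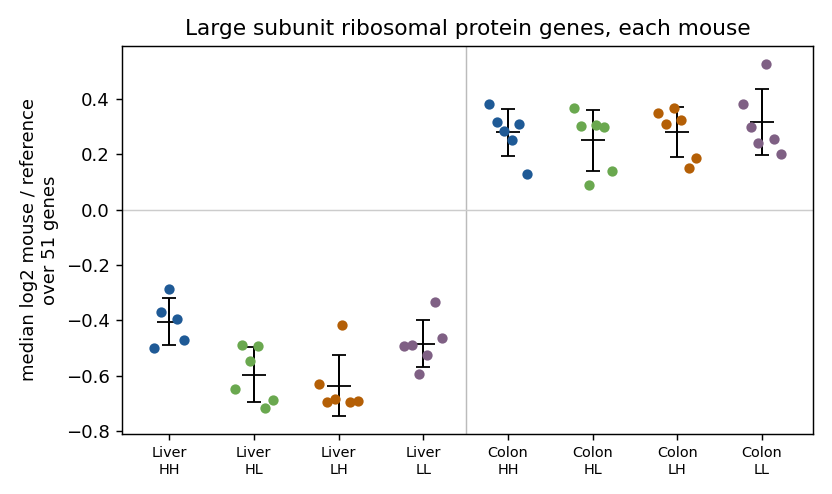
Median log2 ratio of mouse over reference over the 51 large subunit genes in each mouse (points), with the mean and SD of each group (bars), for the 4 diets in liver and colon. HH and LL livers, on 1 diet throughout, have means of -0.40 and -0.48, above the means of the switched HL (-0.60) and LH (-0.64) livers, while the colon groups lie between 0.09 and 0.53 and overlap.

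*Rpl41*, which encodes the shortest protein of the ribosome, had the lowest p of the members in HH *vs.* LH. Its log2 ratios in the HH livers were -0.37, -0.37, -0.03, 0.03 and -0.35, and the LH livers ranged from -0.87 to -0.68 with a median of -0.78. The groups did not overlap. The difference was -0.56 ± 0.11 (SE; unadjusted p = 3.41e-05, FDR 0.12 by limma), a 1.47-fold lower ratio in LH. All 6 LL livers (-0.83 to -0.44, median -0.62) also lay below the HH livers, whereas 2 of the 6 HL livers (-0.94 to -0.29, median -0.70) lay among them. In the colon the LH minus HH difference of *Rpl41* was -0.02 with a 95% confidence interval from -0.21 to 0.18.

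*Rpl39* encodes a short protein of the exit tunnel wall. Its HH livers had log2 ratios of -0.33, -0.36, -0.33, -0.04 and -0.29, and its LH livers ran from -1.14 to -0.42 with a median of -0.93. They did not overlap, although LH replicate 4 stood close to the HH mice. The difference was -0.62 ± 0.15 (SE; unadjusted p = 0.000483, FDR 0.191 by limma). The germline paralog *Rpl39l* was not measured: its brighter probe was well above background on 1 of 24 liver arrays.

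*Rpl34*, another small protein of the subunit, had log2 ratios of -0.67, -0.50, -0.25, -0.33 and -0.47 in the HH livers and of -1.11 to -0.74 in the LH livers, with a median of -0.93. No LH mouse reached the lowest HH mouse, and the difference was -0.47 ± 0.10 (SE; unadjusted p = 0.000117, FDR 0.18). Its 2 probes differed by -0.47 and -0.48. *Rpl27* was the fourth gene without overlap, with HH livers between -0.24 and 0.05 and LH livers between -0.77 and -0.27. These 4 genes compare with 0.845% of all probes whose LH mice all lay below the HH mice. *Rpl35*, which sits at the tunnel exit, was lower by a similar amount (-0.46, unadjusted p = 0.000308), and 1 of its 6 LH livers lay within the HH range.

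**Figure D2:**
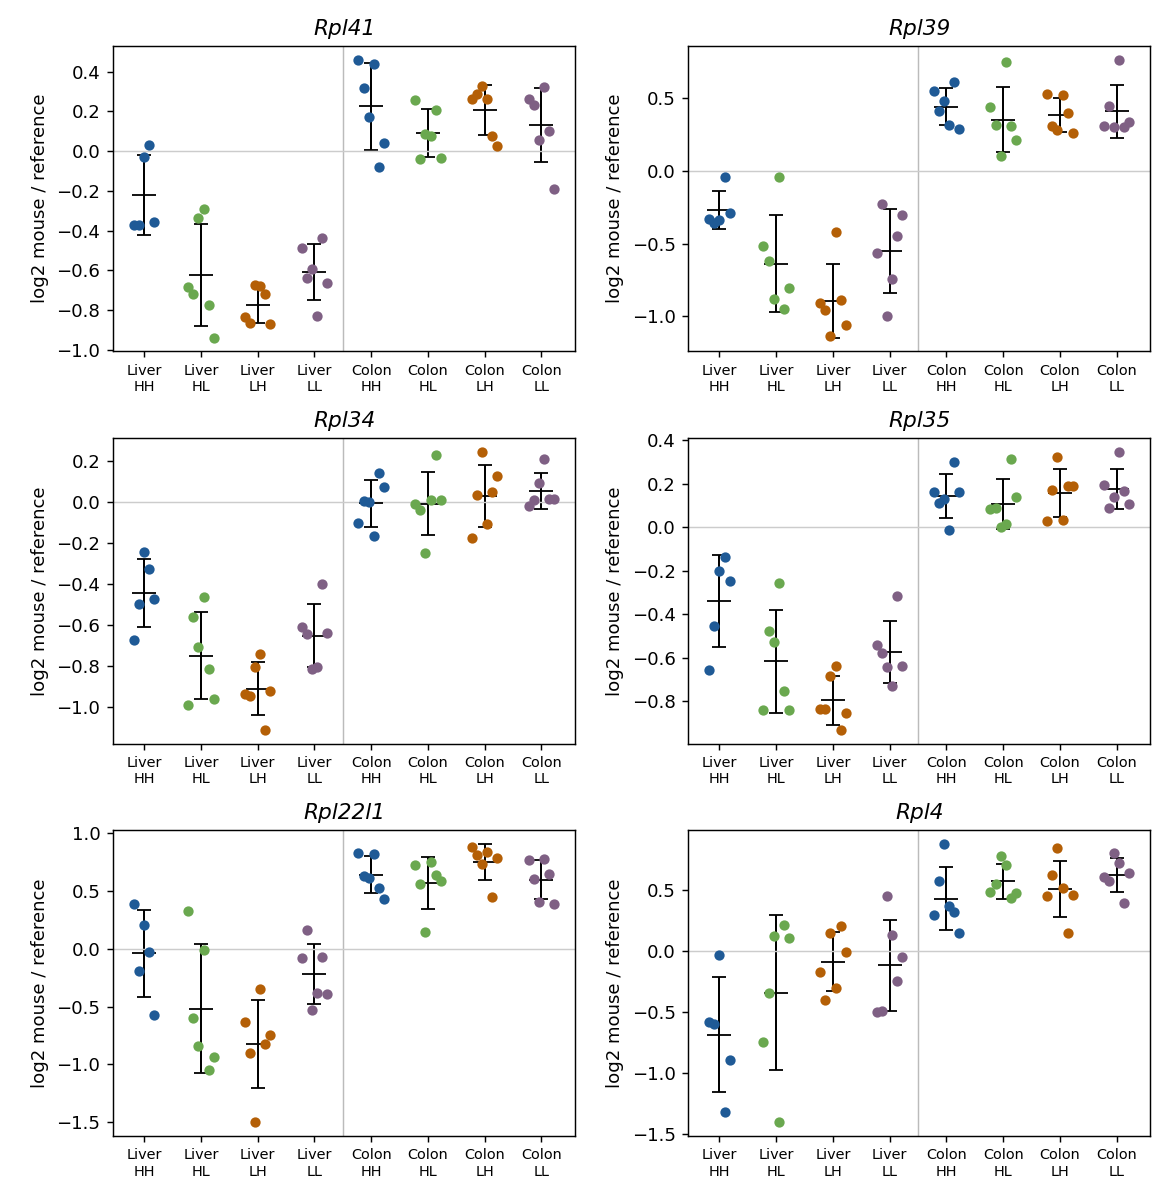
Log2 ratio of mouse over reference of 6 genes in each mouse (points), with the mean and SD of each group (bars). LH livers lie below all HH livers for *Rpl41*, *Rpl39* and *Rpl34* and overlap them by 1 mouse for *Rpl35* and *Rpl22l1*, *Rpl4* runs the other way, and the colon groups overlap in all 6 genes.

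The acidic stalk consists of *Rplp1* and *Rplp2* held on the base *Rplp0*, next to *Rpl12*. Of these 4 genes, 2 were lower in LH with an unadjusted p under 0.05. *Rpl12* ranged from -0.88 to -0.51 in HH and from -1.42 to -0.86 in LH livers, with 5 of 6 LH mice below all HH mice, and its difference was -0.47 (unadjusted p = 0.0031). *Rplp1* differed by -0.20 (unadjusted p = 0.0469). *Rplp0* differed by -0.16, with an interval from -0.44 to 0.13, and *Rplp2* by -0.09, with an interval from -0.32 to 0.13. For *Rplp0* and *Rplp2* no difference was detectable at this number of mice.

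*Rpl5* and *Rpl11* bind the 5S RNA and, outside the ribosome, the p53 regulator Mdm2. Neither had an unadjusted p under 0.05. *Rpl5* differed by -0.08 (interval -0.34 to 0.18) and *Rpl11* by -0.02 (interval -0.19 to 0.16).

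Among the proteins near the peptidyl transferase centre and along the tunnel, *Rpl17* was lower in LH (-0.43, unadjusted p = 0.0214). *Rpl22*, taken up below with its paralog, was also lower (-0.34, unadjusted p = 0.0044). *Rpl3*, whose protein reaches towards the catalytic centre, differed by 0.15 (interval -0.20 to 0.50), and *Rpl10*, which is added last in assembly, by -0.16 (interval -0.51 to 0.19). *Rpl4*, whose long loop lines the tunnel, was the 1 member that was higher. Its HH livers had log2 ratios of -0.58, -0.60, -0.04, -1.32 and -0.89, against -0.40 to 0.20 in the LH livers (median -0.09). Of the 6 LH mice, 3 lay above every HH mouse and 3 within their range. The difference was 0.60 ± 0.25 (SE; unadjusted p = 0.0282, FDR 0.354).

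*Rpl22l1*, the paralog of *Rpl22*, had the largest difference of all members (-0.78, interval -1.26 to -0.31, unadjusted p = 0.00244) and also a wide spread, from -0.58 to 0.39 in HH and from -1.50 to -0.35 in LH livers. Of the 6 LH mice, 1 lay within the HH range. *Rpl7l1* differed by -0.09 beside -0.03 for *Rpl7*, *Rpl3l*, which is expressed in muscle, by -0.05 beside 0.15 for *Rpl3*, and *Rpl36al* by 0.05 beside -0.04 for *Rpl36a*. Of the 11 genes in the list of paralogs and parents that had a probe, 3 were lower with an unadjusted p under 0.05 and 0 were higher.

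Probes of 1 gene did not always agree. The brightest probe of *Rpl36a* differed by -0.04 between LH and HH livers, and its other probes by -0.41 and -0.48 (unadjusted p = 0.029 and 0.0109). The brighter probe of *Rpl22* differed by -0.34 and the dimmer one by 0.16 (unadjusted p = 0.178). Ribosomal protein genes have many processed pseudogenes, and whether a probe also reads their transcripts was not tested.

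The other members that were lower in LH at an unadjusted p under 0.05 were *Rpl26* (-0.51), *Rpl36* (-0.36), *Rpl10a* (-0.30), *Rpl32* (-0.31), *Rpl13* (-0.26), *Rpl9* (-0.39), *Rpl13a* (-0.45), *Rpl35a* (-0.41), *Rpl31* (-0.34), *Rpl24* (-0.32) and *Rpl38* (-0.32). Many of the genes with high numbers in their symbols, which were given roughly in the order of falling protein size, are among them. Of the 43 members named by number alone, 2 of 11 numbered 3 to 11 were lower at this p, 6 of 14 numbered 12 to 24 and 11 of 18 numbered 26 to 41. The median differences of the 3 bins were -0.06, -0.24 and -0.33. This split was made after the values had been seen and has no test. Spearman's rho between number and difference was -0.44 across these 43 genes and -0.39 across 29 small subunit genes on the same arrays, and genes are not independent replicates. Across the 50 measured members, rho between mean signal and difference was -0.10, against 0.50 for the difference of colon and liver.

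**Figure D3:**
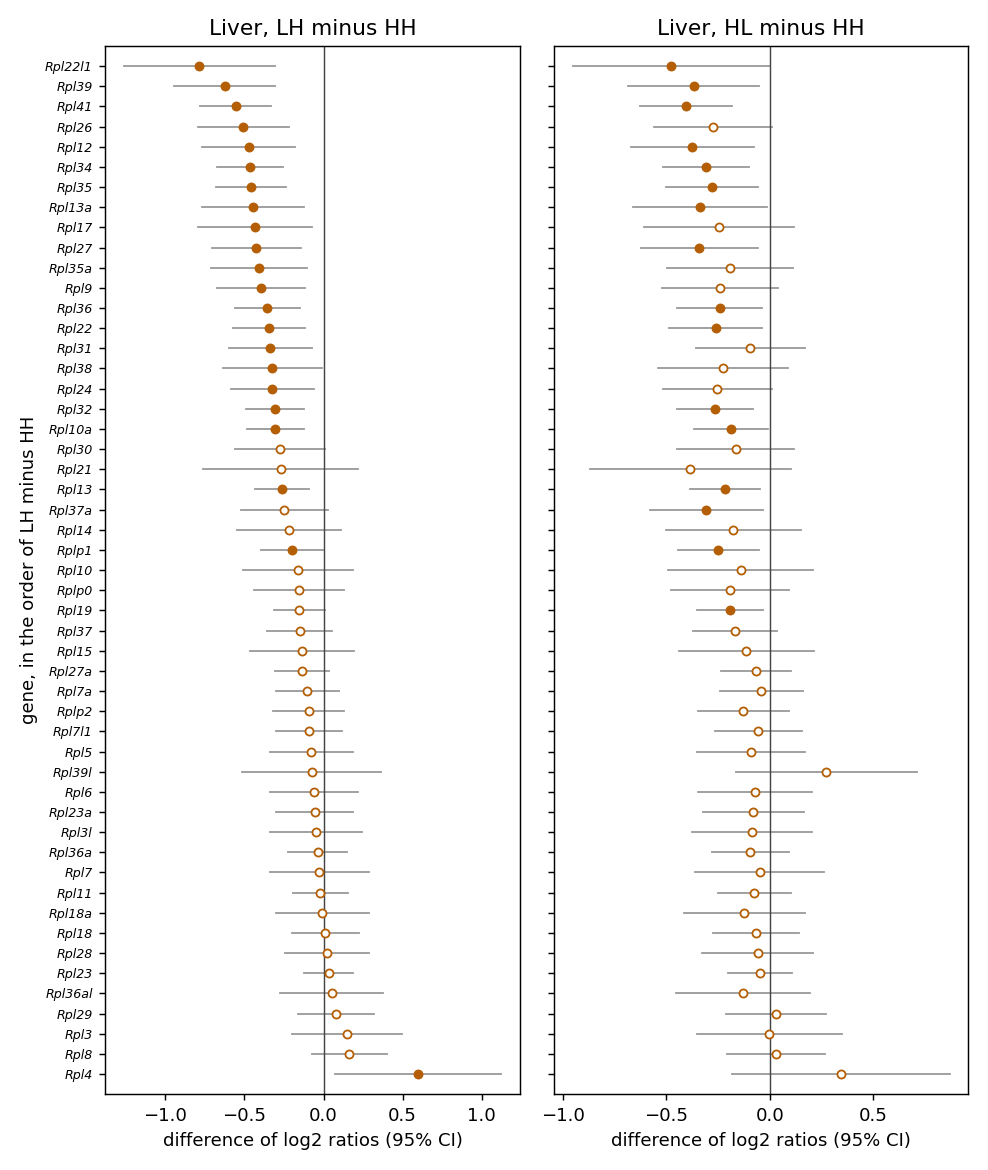
Difference of log2 ratios in the liver for each of the 51 genes, LH minus HH (left) and HL minus HH (right), with 95% confidence intervals from limma and filled points where the unadjusted p is under 0.05. Genes keep the order of the left panel. The points left of 0 are 43 of 51 for LH and 47 of 51 for HL, and *Rpl4* lies at the far right for LH.

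Processing affects how many genes are lower. The members are bright, with the median member at the 99.2 percentile of mean signal, and 35 of the 51 had Cy3 values taken from the scanner's low-gain scan on at least 1 liver array and 41 on at least 1 colon array. No member spot was saturated. With arrays centred on their median in place of loess, 10 members in place of 21 were lower in LH at an unadjusted p under 0.05 and the median difference was -0.10. With the Cy3 channel alone 25 were lower. *Rpl41* passed the fold and FDR thresholds when both arrays of the doubled HH mouse were counted as separate mice (FDR 0.0327) and without the arrays of low spread (FDR 0.0499).

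When the deficient diet began at weaning (HH *vs.* HL), the median difference was -0.17 (HL minus HH) and 16 members were lower at an unadjusted p under 0.05, against 2.22% of all probes, with 0 higher, against 2.15%. Below 0 lay 47 of the 51 differences, against 52.2% of all probes. The lowest FDR was 0.952, so no member came near the threshold. *Rpl41* (-0.40 ± 0.11, SE, unadjusted p = 0.00106), *Rpl34* (-0.31, unadjusted p = 0.00575) and *Rpl32* (-0.26, unadjusted p = 0.00696) had the lowest p. For *Rpl39* the difference was -0.37, with 5 of 6 HL livers below every HH liver. *Rpl4* differed by 0.34 (interval -0.18 to 0.87).

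This comparison depended on the normalization and on single arrays. With median centring 0 of the 51 genes were lower at an unadjusted p under 0.05, and the median difference was -0.03, against -0.05 over all probes. Without the arrays of low spread 5 were lower. Leaving out HH replicate 4 or HL replicate 5 gave 10, and leaving out HL replicate 6 gave 8. HH *vs.* LH and HH *vs.* HL share the HH mice, so a low or high HH group moves both.

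Lifelong deficiency (HH *vs.* LL) showed a smaller difference, with a median of -0.06, 4 members lower at an unadjusted p under 0.05 against 2.19% of all probes, and 3 higher against 1.26%. *Rpl41* differed by -0.39 (unadjusted p = 0.00151), *Rpl32* by -0.22 (0.0235), *Rpl35* by -0.23 (0.0396) and *Rpl34* by -0.21 (0.0491), and *Rpl29* (0.33), *Rpl4* (0.57) and *Rpl18* (0.22) were higher in LL. All LL livers lay below all HH livers for *Rpl41* alone among the members, against 0.248% of all probes. With median centring the median over the 51 genes was 0.10. Leaving out HH replicate 5 gave a median of -0.0851 and leaving out LL replicate 3 gave -0.0301.

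Among offspring of dams fed diet L, LL livers were higher than LH livers. The median difference (LL minus LH) was 0.15, with 15 members higher at an unadjusted p under 0.05 against 3.21% of all probes, and 0 lower against 3.17%. *Rpl10a* (0.24, unadjusted p = 0.00732), *Rpl13a* (0.42, 0.0102) and *Rpl22l1* (0.61, 0.0108) had the lowest p, and the lowest FDR was 0.768. Without all mice that had *Xist* (1 LL and 1 HL liver) 8 were higher, and leaving out LL replicate 2, 5 or 6 or LH replicate 5 each gave 8, and LH replicate 2 or 6 each gave 9. HL and LL livers, which shared the offspring diet L, differed by a median of 0.10 (LL minus HL), with 6 members higher against 1.43% of all probes and 0 lower against 1.66%. Leaving out HL replicate 1 gave 10 and leaving out LL replicate 2 gave 3.

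The contrast of matched with switched diets compares the mean of HH and LL with that of HL and LH. It uses the same mice as the comparisons above. The median over the members was 0.15, with 21 higher at an unadjusted p under 0.05 against 5.4% of all probes, and 0 lower against 5.95%. *Rpl34* (0.28 ± 0.07, SE, unadjusted p = 0.000491), *Rpl41* (0.29, 0.000876) and *Rpl13* (0.21, 0.000949) had the lowest p, and the lowest FDR of a member was 0.29. The within-slide contrast was above 0 on 5 of 6 slides (-0.02 to 0.34), with the doubled HH mouse on slides 3 (0.16) and 6 (0.34). With median centring 12 members were higher.

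In the colon the differences between diets were smaller than in the liver, and few members had an unadjusted p under 0.05. Medians of the 51 differences were 0.01 for LH minus HH, -0.02 for HL minus HH, 0.05 for LL minus HH and 0.06 for LL minus HL. The signs were uneven in the comparisons with LL colons. Below 0 lay 2 of the 51 differences in LL minus HL, against 50.8% of all probes, and 11 of 51 in LL minus HH, against 49.6%. Without LL replicate 4 the medians were 0.0309 for LL minus HL and 0.00552 for LL minus HH, and without HL replicate 3 the former was 0.0398. Without all mice that had *Xist* both were 0.116. The LL colons also differed from each other in cell markers. Their mean log2 ratio over B cell and plasma cell genes had a median of -0.29 and a highest value of 2.51. For T cell genes these values were 0.05 and 1.43, and for Kupffer cell genes -1.39 and 0.60. The part of these markers in the uneven signs was not tested. At an unadjusted p under 0.05, 1 member was lower in LH (1.36% of all probes) and 0 were higher (1.89%). In HL 0 were lower (0.792%) and 0 higher (0.673%), and in LL 0 were lower (1.02%) and 2 higher (0.695%), *Rpl13* and *Rpl5*. The member that was lower in LH was *Rpl7l1*, whose protein is found in the nucleolus. Its colon values ran from -0.25 to -0.08 in HH and from -0.42 to -0.32 in LH, without overlap, and the difference was -0.22 ± 0.06 (SE; unadjusted p = 0.000715, FDR 1). LL colons (-0.29 to 0.02) also lay above all LH colons. Groups did not overlap in these ways for 0.068% of all probes in LH against HH and for 0.0486% in LL against LH. In HL *vs.* LL 1 member was higher in LL (0.544% of all probes), *Rpl13* (0.14, unadjusted p = 0.0183), and 0 were lower (0.481%). In LH *vs.* LL *Rpl7l1* was the 1 member that was higher in LL (1.19%) and 0 were lower (1.61%). In matched minus switched diets *Rpl7l1* was again the 1 that was higher (0.765%), and 0 were lower (1.02%). These results rest on the brighter probe of *Rpl7l1*. Its other probe had no unadjusted p under 0.05 in HH *vs.* LH, LH *vs.* LL or matched minus switched diets.

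The difference between tissues was tested as the colon contrast minus the liver contrast. For HH *vs.* LH the median over the members was 0.22, and 18 members had a positive difference with an unadjusted p under 0.05, against 3.99% of all probes, while 0 had a negative one, against 3.55%. *Rpl34* (0.50, unadjusted p = 0.00024), *Rpl35* (0.47, 0.000456) and *Rpl41* (0.54, 6e-04) had the lowest p, and the lowest FDR was 0.445, so no gene passed. With median centring 7 members had a positive difference with an unadjusted p under 0.05. For matched minus switched diets 45 of the 51 differences were negative, against 51.6% of all probes. At an unadjusted p under 0.05, 15 members had a negative difference, against 2.17% of all probes. The lowest FDR was 0.981.

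Between the tissues themselves the members differed strongly. Over all diets, colon minus liver was 0.77 at the median of the 51 genes, against -0.01 over all probes. In limma 38 members were higher in colon at a fold over 1.5 and an FDR under 0.05, against 15.7% of all probes, and 2 were lower, against 14.6%. In 27 members every one of the 24 colon samples lay above every one of the 23 liver samples. How many of all probes did so was not counted, so this number has no share over the array to be set against. At an unadjusted p under 0.05, 45 members were higher in colon, against 34.2% of all probes, and 4 were lower, against 37%. Each slide held 1 tissue, so slide and tissue cannot be told apart. The methods describe both tissues as taken from the mice, but the labels give liver and colon samples different animal codes, so the fits treated them as independent. In bulk RNA, moreover, fewer cells of a type and less RNA per cell cannot be told apart. With median centring the median of the members was 1.19 while that of all probes was -0.22.

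By the brightest probe of each gene, the stalk base *Rplp0* had the largest tissue difference of the members. Its log2 ratio rose from -1.54 to -0.77 across the liver samples to 0.37 to 1.11 across the colon samples, a difference of 1.87 ± 0.07 (SE; FDR 2.45e-27). Its other probe differed by 1.096 (FDR 1.83e-24), less than the brightest probes of *Rpl7* and *Rplp1* among others, so its rank rests on 1 probe. *Rplp1* (1.27), *Rplp2* (1.22) and *Rpl12* (1.06) were likewise higher in colon. *Rpl7* (1.35), *Rpl23a* (1.26), *Rpl13* (1.14) and *Rpl18* (1.13) followed. The 5S RNA binding genes *Rpl5* and *Rpl11* were higher by 0.99 and 0.66, but the dimmer probe of *Rpl5* differed by 0.03 (unadjusted p = 0.737).

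Both genes that were lower in colon past the threshold were paralogs. *Rpl7l1* differed by -0.61 (FDR 1.67e-18), and its other probe by -1.30. *Rpl3l* differed by -0.64 (FDR 3.47e-13), with mean log2 ratios of -3.80 in HH livers and -4.50 in HH colons. *Rpl36al* (-0.34) and *Rpl21* (-0.30) were lower at an FDR under 0.05 without reaching the fold threshold. With median centring *Rpl7l1* and *Rpl3l* were at -0.03 and -0.02, and *Rpl36al* and *Rpl21* at 0.09 and 0.22. *Rpl22l1* was 1.04 higher in colon, beside 0.67 for *Rpl22*. A dimmer probe of *Rpl21* differed by 0.70 and that of *Rpl23* by -0.18, against 0.91 for the brighter *Rpl23* probe.

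**Figure D4:**
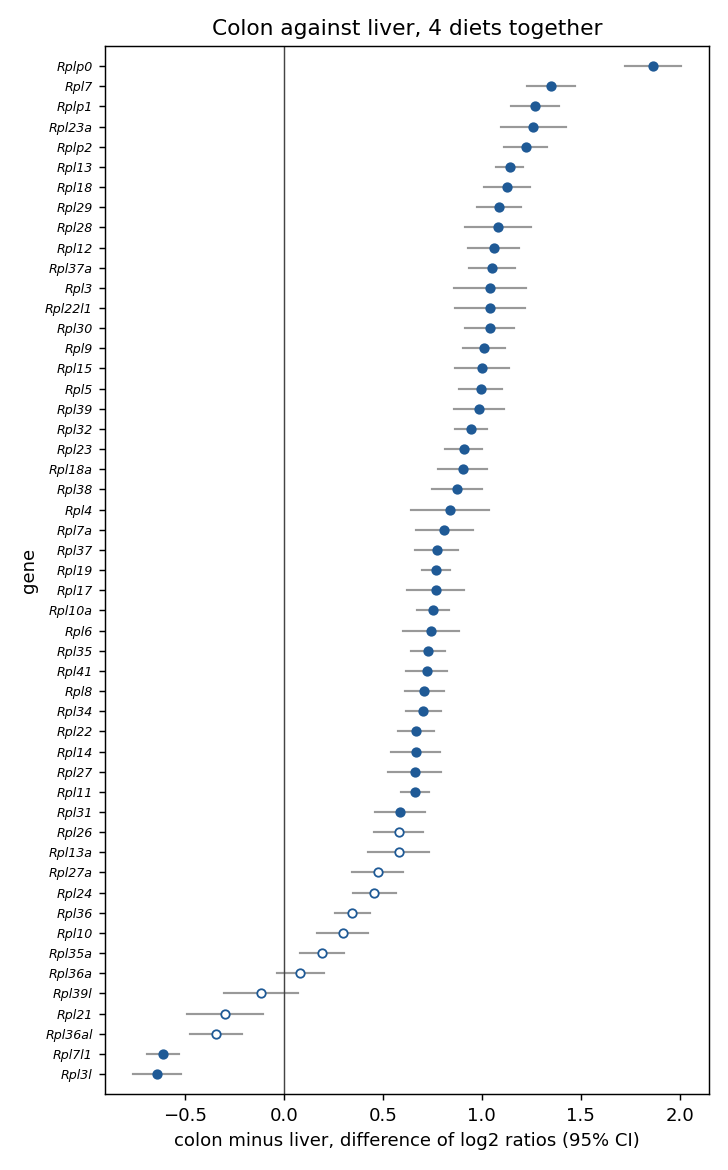
Difference of log2 ratios, colon minus liver with the 4 diets together, for each of the 51 genes, with 95% confidence intervals from limma and filled points for genes with a fold over 1.5 and an FDR under 0.05. All but 5 genes lie to the right of 0, *Rplp0* (1.87) is the farthest, and *Rpl7l1* and *Rpl3l* are filled on the left.

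Within groups, members varied together only in part. Over the 1225 pairs of 50 measured genes, the Pearson correlation of deviations from the group mean had a median of 0.16 across 23 livers and of 0.19 across 24 colons. All genes of a mouse share 1 array and its normalization.

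The rest of the pathway was read from gene lists. In HH *vs.* LH livers the small subunit was lower as well, with 16 of 32 genes lower at an unadjusted p under 0.05, 0 higher and a median of -0.24. *Rps27a*, whose product is fused to ubiquitin, differed by -0.58 (unadjusted p = 0.000261) and *Rps25* by -0.44 (0.000196). Of 7 genes in the elongation factor list 1 was lower, and the median of the list was 0.05. The lower gene, *Eef1e1* (-0.31), has a symbol of this form, but its product is not itself an elongation factor. *Eef1a1* differed by 0.05 and *Eef2* by 0.41 (unadjusted p = 0.102). Of 19 other measured genes whose mRNAs carry the pyrimidine tract, 1 was lower, *Fau* (-0.32), which also encodes a small subunit protein. Of 40 ribosome biogenesis genes 7 were lower, among them *Rpf2* (-0.45), *Nip7* (-0.52) and *Nop58* (-0.50), and 2 were higher, *Ncl* (0.42) and *Nop14* (0.28). Of 15 regulators, *Myc*, which drives ribosome synthesis, was lower (-0.56, unadjusted p = 0.00357) and *Larp1*, which binds pyrimidine tract mRNAs, was higher (0.31, unadjusted p = 0.0117). None of these genes had an FDR under 0.05 by limma.

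**Figure D5:**
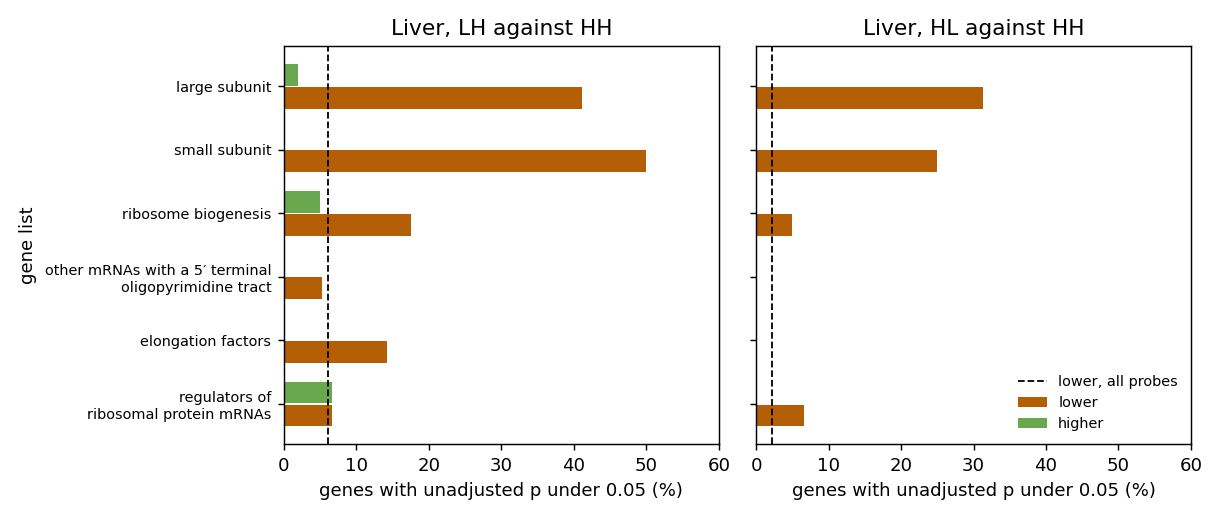
Share of each gene list with an unadjusted p under 0.05, lower (brown) and higher (green), in liver LH against HH (left) and HL against HH (right). The dashed line is the share of all probes that were lower, 6.15% and 2.22%. In LH the lower genes are 21 of 51 for the large subunit, 16 of 32 for the small subunit and 7 of 40 for ribosome biogenesis, and in HL 16 of 51, 8 of 32 and 2 of 40.

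Markers of other cells also differed in these livers. In HH *vs.* LH, 2 of 4 measured neutrophil genes were lower at an unadjusted p under 0.05 (*S100a8* -1.29, *S100a9* -1.46), and the mean log2 ratio over that list was -0.39 to 0.50 in HH and -0.93 to -0.41 in LH mice, with *Ngp* not well above background in either group and *Camp* not in LH. For B cells and plasma cells 3 of 5 were lower, with list means of -0.63 to -0.38 in HH and -0.86 to -0.53 in LH. For proliferation 3 of 6 were lower, among them *Mki67* (-0.40), with list means of -1.22 to -1.04 in HH and -1.51 to -1.16 in LH, and with *Ccnb1* and *Top2a* not well above background in LH. Of 9 measured hepatocyte genes 3 were higher, among them *Cyp2e1* (0.83) and *Fgb* (0.52), with list means of 1.29 to 1.57 in HH and 1.42 to 1.93 in LH. For erythroid cells 1 of 4 was lower, with list means of 0.20 to 0.50 in HH and 0.08 to 0.35 in LH. The group means of the erythroid list were 0.40 in HH, 0.23 in HL, 0.18 in LH and 0.35 in LL livers, the same order as for the large subunit genes. The B cell and plasma cell list had this order too (-0.49, -0.59, -0.73 and -0.57). The hepatocyte list had the reverse order (1.44, 1.61, 1.73 and 1.55), and the neutrophil and proliferation lists had neither. In HH *vs.* HL, 0 of 4 neutrophil, 0 of 4 erythroid, 1 of 5 B cell and plasma cell and 3 of 6 proliferation genes were lower and 2 of 9 hepatocyte genes were higher. HL list means were -0.73 to 0.23 for neutrophils, -0.04 to 0.56 for erythroid cells, -0.80 to -0.42 for B cells and plasma cells, -1.47 to -1.03 for proliferation and 1.29 to 1.81 for hepatocytes. Lists of 2 other tissues reached high values in the switched groups. Over pancreatic acinar genes, HL livers had a median list mean of -2.42 and a highest of 1.00, while HH livers reached -1.81. Over adipocyte genes, LH livers had a median of -1.56 and a highest of 1.88, while HH livers reached -0.67. The part of all these markers in the differences of the ribosomal protein genes was not tested.

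Among the 39 members with a start window, 7 of the 15 with a pyrimidine run near the start and 10 of the 24 without one were lower in LH at an unadjusted p under 0.05, with median differences of -0.22 and -0.16. For the letters CCGGAAG the counts were 7 of 15 with and 10 of 24 without, with medians of -0.15 and -0.19. For the letters AAGATGGC they were 3 of 4 with and 14 of 35 without, with medians of -0.38 and -0.16, and 4 genes are few. None of these splits was tested. *Rpl41*, printed above, had the letters CCGGAAG and no run of 8, and *Rpl35* had a run of 18 from 7 bases before the start. The windows of *Rpl4* and *Rpl5* lacked the letters CCGGAAG and had no run of 8 within the stretch searched around the start. In *Rpl5* a run of C and T lies farther upstream and was not counted. In *Rpl4* a longer run crosses the upstream edge of that stretch, and only its 6 bases inside were counted. *Rpl4* thus stands among the members without a run.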

How the data were processed

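RNA of liver and colon was hybridised to 2-colour Agilent arrays of 45018 spots. The authors deposited scanner files whose Cy3 and Cy5 intensities were not yet normalized, and a table of log2 ratios processed by the authors, which was used as an alternative. After its sign was turned, it correlated at 0.9997 or more with loess-normalized ratios without background correction. Per the labels, Cy3 held the mouse and Cy5 the reference, and the submitters' processing notes name limma and R 3.0.2.

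Here, intensities were background corrected (normexp, offset 50, with local backgrounds brighter than their spot set to the median of the array and channel), normalized by loess within arrays and fitted with limma 3.58.1 in R 4.3.3 (with the data.table package, version 1.17.8), all 4 diets of a tissue in one fit and all 8 groups for comparisons of tissues, with Benjamini-Hochberg adjustment over all probes. A call needed a fold over 1.5 and an FDR under 0.05. The 2 arrays of 1 HH liver mouse were averaged (r = 0.805 between their deviations, against at most 0.261 for other HH pairs). Labels do not tie other mice to litters, so p-values measure the spread between these mice. Named were *Rpl41*, the genes of the paralog, stalk, 5S and tunnel lists, the 5 members highest and the 5 lowest by moderated t in a comparison, called members, members without overlap between groups and members whose probes differed in direction. Other members are named where a count of them is given, and list genes other than members were chosen after their values were seen. Members and lists were chosen with earlier results of these data known. The fits were tested on simulated data. Alternatives changed the background correction, normalization, probe filters, slide block and samples. Start sequences came from RefSeq (GRCm38.p6), and probe and protein sequences were not used here. Some genes of the lists are not reported here.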

Additional observations from a re-analysis of the deposited data

Results flagged for a closer look

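In 8 of 88 groups of 5 or 6 mice tested, the highest or lowest mouse stood apart from the others by Dixon's test, which chance does in about 1 in 20 groups. For the median log2 ratio over the large subunit genes, liver LH replicate 4 (-0.42) lay above the nearest LH mouse (-0.63). For *Rpl39*, liver LH replicate 4 (-0.42, nearest -0.89), liver HH replicate 4 (-0.038, nearest -0.29) and colon LL replicate 4 (0.77, nearest 0.45) stood high. For *Rpl22l1*, colon HL replicate 3 (0.15, nearest 0.56) and colon LH replicate 5 (0.45, nearest 0.74) stood low. For *Rpl12*, colon HH replicate 5 (0.59, nearest 0.10) and colon LH replicate 3 (0.46, nearest 0.19) stood high.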

How the results depend on the processing

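Results were recomputed under 20 other settings and with each of the 47 samples left out. No diet comparison gave a called member, except *Rpl41* in HH *vs.* LH when the arrays of 1 HH liver mouse counted as 2 mice (1 called) and without the arrays of low spread (1 called). With median centring, the members lower at an unadjusted p under 0.05 were 10 in HH *vs.* LH and 0 in HH *vs.* HL, those higher were 12 in matched minus switched diets and 7 in the difference between tissues, and the medians were -0.032 in HH *vs.* HL, 0.10 in HH *vs.* LL and 1.19 in colon against liver. With the scanner's processed signals the medians were -0.28 in HH *vs.* LH and 0.91 in colon against liver. Without the arrays of low spread 5 members were lower in HH *vs.* HL, without all mice that had *Xist* 8 were higher in LH *vs.* LL, and with the slide as a fixed block and the second array of the doubled mouse 10 were higher in HL *vs.* LL. The cause was not tested. Between tissues, *Rpl21* turned to 0.22 with median centring and to 0.20 with the mean over its probes, and *Rpl36al* to 0.0905 with median centring. Leaving out 1 mouse gave 19 to 23 lower members in HH *vs.* LH, 8 to 19 in HH *vs.* HL, and 3 to 10 higher in HL *vs.* LL, 8 to 18 in LH *vs.* LL, 19 to 24 in matched minus switched diets and 16 to 22 in the difference between tissues. No paired analysis was possible because the replicate numbers follow the order of deposition and name no shared animal or litter. Within a tissue these numbers coincide with the slides, so the slide block above is also the fit by number.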
